A study of Rattus norvegicus with 6 samples.

Results

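The CCN proteins and the YAP/TAZ branch of the Hippo pathway were described by 10 genes of rat bone marrow mesenchymal stem cells co-cultured with microglia. They were the rows of the deposited gene table named Ccn1, Ccn2, Ccn3, Ccn4, Ccn5, Yap1, Wwtr1, Tead1, Lats2 and Ankrd1. All 10 symbols were found among the 19266 genes of the table. RNA was measured by poly(A)-selected paired-end RNA sequencing in 6 libraries of wild-type cells under the cell line name SCSP-402. In both groups the stem cells were kept with BV2, an immortalised mouse microglial line. The 3 LPS libraries came from co-cultures given lipopolysaccharide (LPS), an endotoxin sensed by toll-like receptors, and the 3 untreated libraries from co-cultures without it. The labels placed all 6 in 1 batch and gave neither a dose nor a time of LPS, and no group of stem cells without BV2 was analysed here. They do not say whether replicates of a group were grown apart. The p-values therefore reflect how far these 6 libraries varied, and that variation may be technical.

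CCN proteins are secreted matricellular proteins that bind integrins, heparan sulphate proteoglycans and growth factors at the cell surface. Ccn1 (Cyr61) and Ccn2 (connective tissue growth factor) are widely used as readouts of YAP and TAZ, transcriptional coactivators that carry signals of cell stretch, spreading and contact to the nucleus. There they bind DNA through TEAD factors. When the Hippo kinase cascade is active, LATS kinases phosphorylate YAP and TAZ and hold them in the cytoplasm. That control acts on the proteins, so the RNA levels given here do not measure YAP or TAZ activity. In marrow stromal cells, YAP and TAZ are known for their part in the choice between bone and fat fates.

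Ccn1 and Ccn2 are the best known TEAD target genes among the 10, and the 250 bases upstream of their starts are printed to show the TEAD core motif CATTCC in each. Capitals mark the motif or its reverse complement, searched on both strands. The sequences come from RefSeq on the rat build GRCr8, whereas the gene positions given later follow the authors' table. The Ccn1 window lies on the minus strand at chr2:237225690-237225939 and the Ccn2 window on the minus strand at chr1:22624615-22624864.
Ccn1: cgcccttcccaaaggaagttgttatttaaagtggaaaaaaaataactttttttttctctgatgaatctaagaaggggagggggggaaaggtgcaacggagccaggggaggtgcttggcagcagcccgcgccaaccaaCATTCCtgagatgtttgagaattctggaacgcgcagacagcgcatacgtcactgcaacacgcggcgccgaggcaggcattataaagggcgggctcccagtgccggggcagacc
Ccn2: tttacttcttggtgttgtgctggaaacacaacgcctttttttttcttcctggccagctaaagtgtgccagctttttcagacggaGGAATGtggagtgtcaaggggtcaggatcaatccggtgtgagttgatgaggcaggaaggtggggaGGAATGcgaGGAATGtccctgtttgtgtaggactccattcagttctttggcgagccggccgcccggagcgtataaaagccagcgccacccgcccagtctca
The Ccn2 window held 3 matches, at 166, 101 and 92 bases before the start, all as the reverse complement GGAATG. The Ccn1 window held 1 match, 113 bases before the start. Yap1 also held 1 match and Wwtr1 none, and the promoter table matched these 4 members by symbol. Over all 33469 promoter windows of the same length, 12.1% held at least 1 match and 0.0777% held at least 3. The CArG box bound by serum response factor was found in 1.50% of the windows and in none of the 4.

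**Figure D1:**
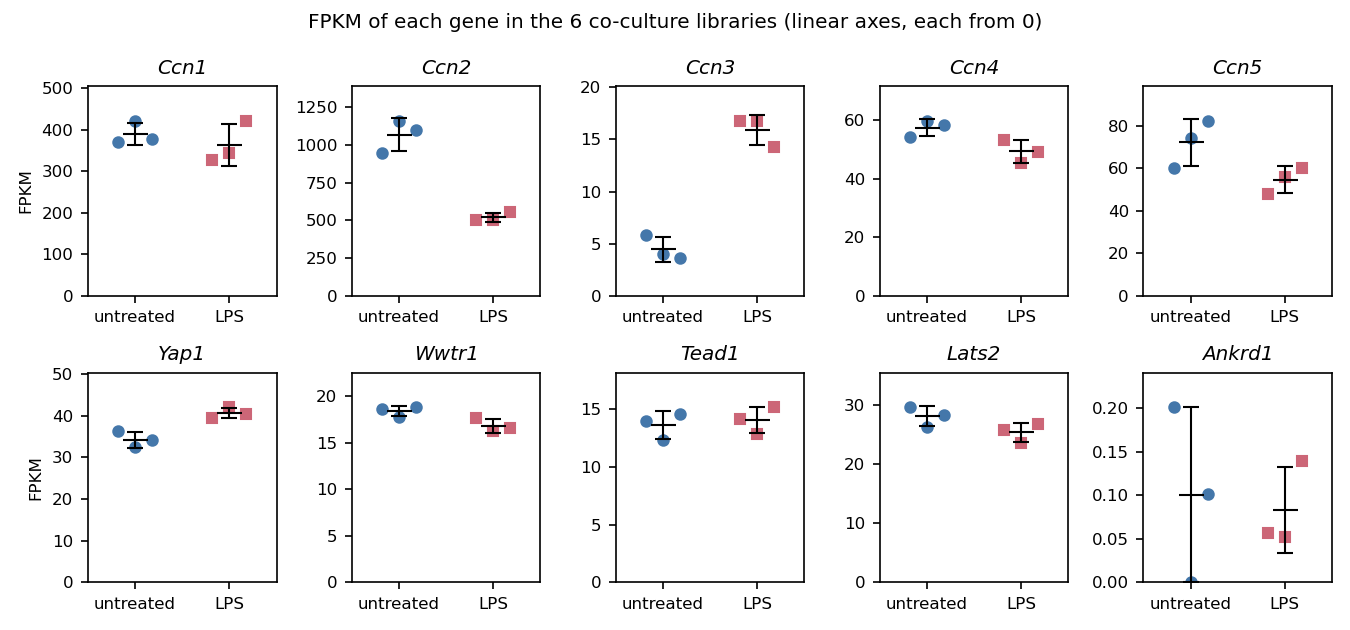
FPKM (fragments per kilobase per M fragments) of each of the 10 genes, with 1 point per library, circles for untreated and squares for LPS co-culture. Horizontal bars show the mean and whiskers the SD of 3 libraries, on linear axes that start at 0 and differ between panels. Ccn2 was lower and Ccn3 higher in every LPS library than in any untreated one.

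With LPS, Ccn2 fell about 2.13-fold and Ccn3 rose 3.45-fold, while Ccn1 did not pass the test. Ccn4 and Ccn5 fell by less. On the transcriptional side, Yap1 rose slightly, and Wwtr1 and Lats2 fell slightly. Of the 10 genes, 9 passed the expression filter (FPKM of 1 or more in 3 or more libraries), each of them in all 6. By edgeR's quasi-likelihood test, with an adjusted p under 0.05, 2 of the 9 rose, 5 fell and 2 did not pass. Over all 11559 tested genes 39.1% passed, 20.1% as higher and 19.0% as lower. With limma on the authors' FPKM values, 63.3% of all calls were higher, against 51.3% by edgeR. Among the 9, the median log2 fold change was -0.18, beside 0.00012 over all tested genes. The FPKM values of the groups did not overlap for 2 genes that were higher and 4 that were lower, beside 32.8% and 20.6% of all tested genes (53.3% in either direction). Changes that passed and reached 2-fold were found for 4.3% of tested genes, and Ccn2 and Ccn3 were the 2 of the 9 that did so.

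Library totals ran from 77.4 M to 82.03 M count units, or 19.3 M to 20.5 M fragments if 1 fragment is worth 4 units, so depth differed little between groups. Of 10 stromal markers, 9 had a mean FPKM of at least 1, and their sum ran from 21802 to 23948 FPKM in untreated and from 16759 to 17163 FPKM in LPS libraries. The collagen genes Col1a1, Col1a2 and Col3a1 held nearly all of that sum and fell by edgeR, whereas Thy1, Nt5e, Cxcl12, Pdgfrb and Eng rose and Cd44 did not pass. Of 13 microglia and macrophage markers, 12 were in the table and Tmem119 alone reached a mean FPKM of 1, at 64.7 and 69.4. The summed level of that list was 63.5 to 67.3 FPKM in untreated and 69.1 to 71.6 FPKM in LPS libraries. The other 11 stayed at or under 0.595 FPKM in every library, with Cd68 the highest, and Ptprc, Aif1, Cx3cr1, C1qa and Trem2 at or under 0.0668 FPKM. The 5 endothelial markers summed to at most 0.817 FPKM. The reads were placed on the rat genome, and any share of mouse BV2 RNA in these values was not tested. In such bulk RNA, fewer cells of a type and less RNA per cell cannot be told apart.

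Ccn2 encodes connective tissue growth factor, a matrix-associated promoter of fibrosis and chondrogenesis. It was the most abundant of the 10, ranking number 31 of all genes in the table by mean FPKM. The untreated libraries held 946, 1158 and 1100 FPKM of Ccn2, and the LPS libraries 501, 499 and 557. All 3 LPS values lay below all 3 untreated values. Means were 1068 ± 109 and 519 ± 32.8 FPKM (SD, n = 3 each). On the log2 scale Ccn2 differed by -1.09 ± 0.081 (SE, edgeR adjusted p = 7.31e-05). It was the fall of rank 170 among the tested genes and passed in all 15 alternative analyses. The gene, ENSRNOG00000015036, spans 20802199 to 20805734 of chromosome 1 (minus strand, build mRatBN7.2).

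Ccn1, a close relative of Ccn2 that promotes adhesion and angiogenesis, did not show a difference of that size. Its FPKM was 371, 421 and 377 in the untreated libraries and 326, 343 and 420 in the LPS libraries. The groups overlapped, with LPS replicate 3 about as high as untreated replicate 2. For Ccn1 the fitted log2 fold change was -0.15, with a 95% interval from -0.37 to 0.062 (edgeR adjusted p = 0.233), so a fall as large as that of Ccn2 lay outside the interval. Without LPS replicate 3 the difference passed as lower, at a log2 fold change of -0.27 (edgeR adjusted p = 0.0227). Ccn1, ENSRNOG00000014350, spans 234562408 to 234565484 of chromosome 2 (minus strand).

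The ratio of Ccn2 to Ccn1 within a library compares the pair directly. It was 2.55, 2.75 and 2.92 in untreated and 1.54, 1.46 and 1.33 in LPS libraries. Every LPS ratio lay below every untreated ratio, and the exact two-sided permutation test gave p = 0.1, the smallest that 3 against 3 libraries allow. The ranges of Ccn2 and Ccn1 within each group fixed this outcome for any matching of libraries, so it restates the single genes. The ratio of Ccn2 to Ccn1 was 1 of 3 ratios tested, and p adjusted over the 3 was also 0.1. In untreated co-culture Ccn2 made up 67.0% ± 1.07 and Ccn1 24.5% ± 1.28 of the summed FPKM of the 5 CCN genes (SD, n = 3). With LPS the shares were 51.9% ± 1.21 and 36.1% ± 1.86. The sum itself was 1592 ± 141 FPKM without and 1002 ± 85.6 FPKM with LPS.

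**Figure D2:**
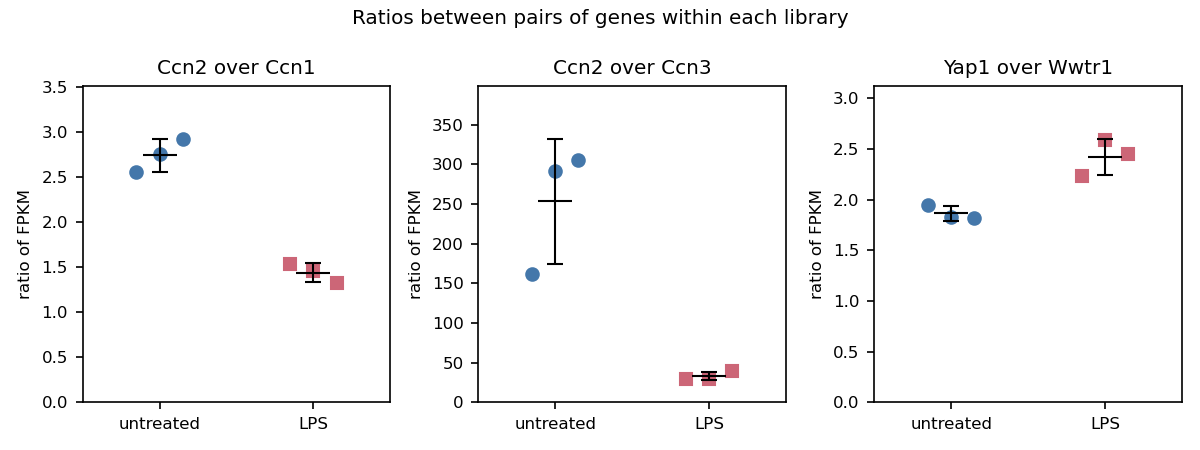
Ratio of the FPKM of Ccn2 to Ccn1, of Ccn2 to Ccn3 and of Yap1 to Wwtr1 within each library (unitless), with circles for untreated and squares for LPS co-culture, and bars for the mean and SD of 3 libraries. The groups were separate for all 3 ratios, which were lower with LPS for the first pairs and higher for Yap1 to Wwtr1. For Ccn2 to Ccn3 and for Yap1 to Wwtr1, this follows from the separation of the single genes. For Ccn2 to Ccn1, it follows from the ranges of both genes, of which only Ccn2 was separate.

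Ccn3 (Nov) moved in the direction opposite to Ccn2. In kidney mesangial cells, studied in rodents, CCN3 is known to counter the profibrotic activity of CCN2. Its FPKM was 5.83, 3.98 and 3.60 in the untreated and 16.8, 16.7 and 14.3 in the LPS libraries. Every LPS value stood far above the highest untreated value, that of untreated replicate 1. Means were 4.47 ± 1.20 and 15.9 ± 1.42 FPKM (SD, n = 3 each). The log2 fold change was 1.79 ± 0.17 (SE, edgeR adjusted p = 0.000177), which ranked number 86 among the rises, and it passed in all 15 alternatives. The ratio of Ccn2 to Ccn3 was 162, 291 and 306 in untreated and 29.9, 29.8 and 38.9 in LPS libraries. Those ratios did not overlap between groups (exact two-sided permutation p = 0.1, the smallest possible). Ccn2 and Ccn3 were each separate already, in opposite directions, so this outcome was fixed and restates the single genes. Despite its rise, Ccn3 remained a minor CCN transcript, with 0.286% ± 0.103 of the summed CCN FPKM without and 1.61% ± 0.265 with LPS. The gene, ENSRNOG00000008697, spans 86094000 to 86101019 of chromosome 7 (plus strand).

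Ccn4 (Wisp1), a Wnt-inducible CCN protein known from bone-forming cells, fell modestly. Its FPKM was 54.2, 59.7 and 58.5 in untreated and 53.3, 45.5 and 49.3 in LPS libraries. The groups did not overlap, but untreated replicate 1 and LPS replicate 1 lay close together. By edgeR, Ccn4 differed by -0.27 ± 0.069 on the log2 scale (SE, edgeR adjusted p = 0.0158). The call was lost without untreated replicate 2 (edgeR adjusted p = 0.0562) or untreated replicate 3 (0.0510), and equally on omitting LPS replicate 2 (0.0535). Ccn4, ENSRNOG00000007078, spans 98645182 to 98677248 of chromosome 7 (plus strand).

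Ccn5 (Wisp2) is the CCN protein that lacks the C-terminal cystine-knot module, and it is known to restrain adipogenic commitment of mesenchymal precursors. Its FPKM was 60.3, 74.3 and 82.4 in untreated and 47.8, 56.1 and 60.2 in LPS libraries. The highest LPS value lay just under the lowest untreated value. On the log2 scale Ccn5 differed by -0.45 ± 0.12 (SE, edgeR adjusted p = 0.0185). The call was lost without untreated replicate 2 (edgeR adjusted p = 0.0565), untreated replicate 3 (0.0612), and on omitting LPS replicates 1 (0.0711) or 2 (0.0574). Ccn5, ENSRNOG00000010666, spans 152491220 to 152502636 of chromosome 3 (plus strand). Ccn6, the CCN gene outside the 10, stayed at or under 0.0837 FPKM in every library, below the filter, and did not pass without it (edgeR adjusted p = 0.461).

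Yap1 encodes YAP and Wwtr1 encodes TAZ, related coactivators with overlapping targets. Yap1 stood at 36.2, 32.4 and 34.1 FPKM in untreated and 39.5, 42.0 and 40.5 FPKM in LPS libraries. All LPS values were higher than all untreated values. Its log2 fold change was 0.20 ± 0.050 (SE, edgeR adjusted p = 0.0148), and the call was lost without untreated replicate 2 (0.0525) or LPS replicate 2 (0.0562). Wwtr1 stood at 18.6, 17.8 and 18.8 FPKM in untreated and 17.7, 16.2 and 16.5 FPKM in LPS libraries. Its LPS values were all lower, with LPS replicate 1 just under untreated replicate 2. On the same scale the change of Wwtr1 was -0.18 ± 0.052 (SE, edgeR adjusted p = 0.0270). That call was lost with limma on FPKM (adjusted p = 0.0865) and without untreated replicate 3 (0.0821), and on omitting LPS replicates 2 (0.0976) or 3 (0.0858). The ratio of Yap1 to Wwtr1 was 1.95, 1.83 and 1.82 in untreated and 2.23, 2.58 and 2.45 in LPS libraries. These ratios were separate, with an exact two-sided permutation p of 0.1, the smallest possible. That outcome too was fixed by the separation of Yap1 and Wwtr1 in opposite directions. Yap1, ENSRNOG00000005933, spans 5095722 to 5167010 of chromosome 8, and Wwtr1, ENSRNOG00000016617, spans 141648108 to 141766968 of chromosome 2, both on the minus strand.

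Tead1, a DNA-binding partner of YAP and TAZ, stood at 14.0, 12.3 and 14.6 FPKM in untreated and 14.1, 12.8 and 15.1 FPKM in LPS libraries. The groups overlapped fully. The log2 fold change was -0.0070 with a 95% interval from -0.19 to 0.18 (edgeR adjusted p = 0.953), and its sign changed with limma on FPKM. Lats2, the kinase that inhibits YAP and TAZ and is itself one of their targets, stood at 29.6, 26.4 and 28.5 FPKM in untreated and 25.8, 23.6 and 26.9 FPKM in LPS libraries. Its groups overlapped at untreated replicate 2. Lats2 had a log2 fold change of -0.20 ± 0.064 (SE, edgeR adjusted p = 0.0411). It had the largest adjusted p of the 7 calls, and the call was lost with limma on FPKM (adjusted p = 0.115), without the expression filter (0.0651) and without untreated replicate 3 (0.104), and on omitting LPS replicates 1 (0.0862) or 2 (0.128). Tead1, ENSRNOG00000015488, spans 166792628 to 167003369 of chromosome 1 (plus strand), and Lats2, ENSRNOG00000056343, spans 31825092 to 31877220 of chromosome 15 (minus strand).

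Ankrd1, a nuclear ankyrin-repeat protein used as a YAP readout in many cell types, was near the detection limit and below the expression filter. Its FPKM was 0.201, 0 and 0.102 in untreated and 0.0570, 0.0524 and 0.139 in LPS libraries. These values rested on 45, 0 and 23 count units and on 13, 12 and 31 count units, where 1 fragment may be worth about 4 units. On that assumption the 0 allows up to 0.155 fragments per M fragments in that library, for counting error only. Fitted without the filter, its log2 fold change was -0.32 with a 95% interval from -3.02 to 2.37 (edgeR adjusted p = 0.886), so a difference was not detectable at this depth. Ankrd1, ENSRNOG00000018598, spans 233815851 to 233824410 of chromosome 1 (minus strand).

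**Figure D3:**
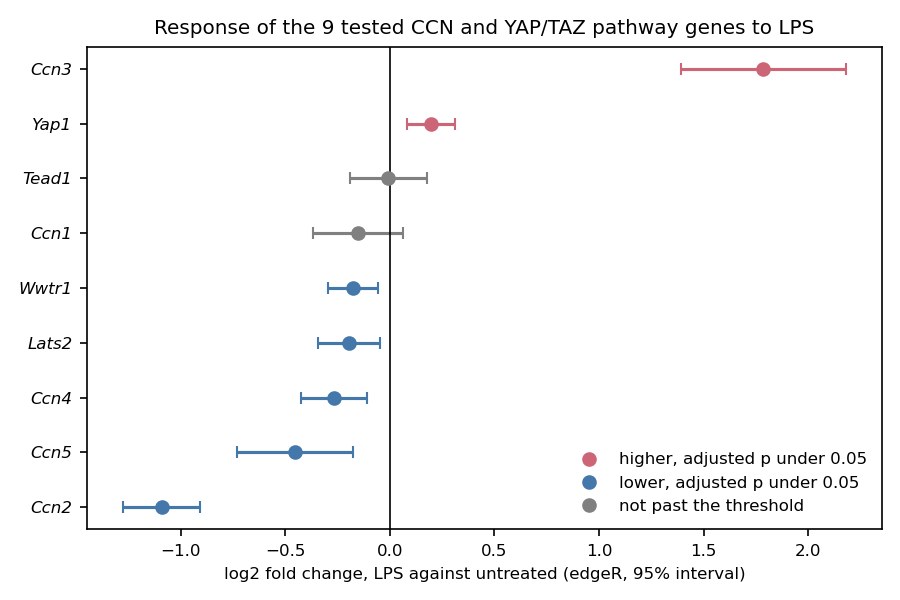
Log2 fold change of LPS against untreated co-culture for the 9 tested genes, by edgeR on the counts, with 95% intervals. The interval of Ccn3 ran from 1.39 to 2.18 and that of Ccn2 from -1.28 to -0.91, and the interval of Ccn5, the next lowest, from -0.73 to -0.17.

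By level per length, the untreated order was Ccn2, Ccn1, Ccn5, Ccn4, Yap1, Lats2, Wwtr1, Tead1, Ccn3 and Ankrd1. With LPS, Ccn5 (47.8 to 60.2 FPKM) overlapped Ccn4 (45.5 to 53.3 FPKM). Ccn3 (14.3 to 16.8 FPKM) then overlapped both Wwtr1 (16.2 to 17.7 FPKM) and Tead1 (12.8 to 15.1 FPKM). Neighbouring levels elsewhere in the order did not overlap within either group.

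Untreated replicate 1 lay apart from the other untreated libraries for several of these genes. As a share of the way from the mean of untreated replicates 2 and 3 to the LPS mean, untreated replicate 1 stood at 29.9% for Ccn2, 16.9% for Ccn3 and 40.1% for Yap1. For Ccn4 and Ccn5 it stood at 50.7% and 76.5%. For Lats2 it lay on the far side, at -113%. For Wwtr1 the share was -22.5%, but its 18.6 FPKM lay between the 17.8 and 18.8 FPKM of the other untreated libraries. Without that library the log2 fold change was -1.17 for Ccn2 and 2.02 for Ccn3, and each of the 7 calls held. Over all tested genes, 2635 were then higher and 2419 lower, against 2323 and 2201 with it.

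Among tested genes, the 5 whose log2(FPKM + 1) followed Ccn2 most closely over the 6 libraries were Col11a1, Rtn4rl1, Trib3, Nupr1 and Cth. Likeness was the root mean square difference after centring each gene on its mean. It ran from 0.035 for Col11a1 to 0.057 for Cth. Col11a1, a minor fibrillar collagen chain of cartilage, stood at 326, 393 and 383 FPKM in untreated and 175, 169 and 181 FPKM in LPS libraries. These genes were chosen for that likeness, so it is a description.

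Hippo regulators were described by a list of 30 genes, without the 10 genes above. The listed genes act upstream of or bind YAP, TAZ and TEAD, or are TEAD factors themselves (Tead2, Tead3 and Tead4). Of the 29 tested, 3 rose, 13 fell and 13 did not pass, and the median of their log2 fold changes was -0.17. Thus 55.2% passed, beside 39.1% of all tested genes. Amot, an angiomotin that binds YAP, fell from 10.3 ± 0.989 to 6.73 ± 0.427 FPKM (SD, n = 3), at a log2 fold change of -0.66 (edgeR adjusted p = 0.000530). The LIM-domain genes Ajuba and Limd1, whose proteins bind LATS kinases, fell 1.54-fold and 1.46-fold, and Wwc2, a Kibra relative that promotes LATS activity, fell 1.48-fold. The largest rises were those of Dchs1, a protocadherin ligand of Fat4, and of Vgll3, a TEAD cofactor. Dchs1 went from 1.91 ± 0.0747 to 3.81 ± 0.237 FPKM, and Vgll3 from 47.9 ± 7.19 to 75.2 ± 1.81 FPKM. The core kinase genes differed little, with Lats1 and Stk3 1.18-fold and 1.16-fold lower and Stk4 not past the test (edgeR adjusted p = 0.217). The most abundant genes that did not pass were the 14-3-3 genes Ywhaz and Ywhaq, whose proteins hold phosphorylated YAP in the cytoplasm. They stood at 208 ± 4.82 and 152 ± 6.06 FPKM without and at 205 ± 1.02 and 142 ± 6.01 FPKM with LPS. Ywhaq was called lower with 4 of the 15 alternatives, including DESeq2 (adjusted p = 0.0402) and leaving out untreated replicate 1 (edgeR adjusted p = 0.00669). With limma on FPKM, 7 of the 29 passed as lower and 4 as higher.

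YAP/TAZ targets were taken from a signature described in human tumours, of which 18 genes outside the 10 were listed and tested. They split evenly, with 6 higher, 6 lower and 6 not past the test, and a median log2 fold change of 0.071. The share that passed was 66.7%, beside 39.1% of all tested genes. Ccdc80, a secreted matrix protein, was at 2009 ± 162 FPKM without and 808 ± 62.8 FPKM with LPS, a log2 fold change of -1.36 ± 0.076 (SE, edgeR adjusted p = 3.94e-05). Tgfb2, a growth factor that induces Ccn2 in many cells, fell 2.59-fold, from 15.1 ± 3.46 to 6.04 ± 0.0710 FPKM. Fjx1, Ptpn14 and Gadd45a fell 1.99-fold, 1.97-fold and 1.88-fold. Ptpn14 encodes a phosphatase that restrains YAP, and Gadd45a a growth arrest protein. Nt5e, the ectonucleotidase CD73 that is also a stromal marker, rose from 4.10 ± 1.06 to 11.6 ± 1.15 FPKM, a log2 fold change of 1.45 ± 0.16 (SE, edgeR adjusted p = 0.000357). Tissue factor (F3) rose from a mean of 50.6 to 89.1 FPKM and Axl, a receptor tyrosine kinase, from 81.1 to 111 FPKM. These 2 were named after their values were seen. Amotl2 and Crim1 did not pass, at 107 ± 3.83 and 17.9 ± 1.27 FPKM without and 98.5 ± 8.13 and 20.7 ± 1.25 FPKM with LPS. With 4 of the 15 alternatives Amotl2 was called lower, including a replicate block (edgeR adjusted p = 0.0394) and leaving out LPS replicate 3 (0.0167). Crim1 passed as higher with limma on log2(FPKM + 1) (adjusted p = 0.0493).

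**Figure D4:**
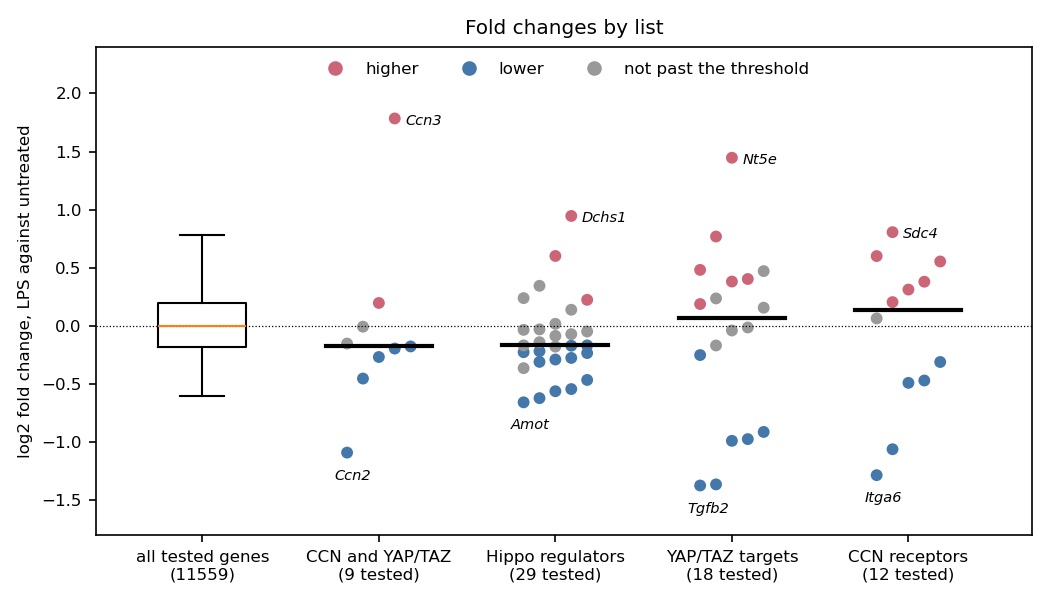
Log2 fold change of LPS against untreated co-culture by edgeR, with 1 point per tested gene in each list and a bar at the list median. The box shows the quartiles of all 11559 tested genes and its whiskers the percentiles 5 and 95. The lists held both higher and lower genes, with medians of -0.18, -0.17, 0.071 and 0.13 from left to right.

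Receptors through which CCN proteins act were listed as 15 integrin, proteoglycan, lipoprotein and growth factor receptor genes. Of the 12 tested, 6 rose and 5 fell, and the list median was 0.13 on the log2 scale. In this list 91.7% passed, beside 39.1% of all tested genes. Like the Hippo and target lists, it was chosen with earlier results of these data known, so its share is a description. The laminin-binding integrin chain Itga6, a receptor of CCN1 in fibroblasts, went down from 4.22 ± 0.809 to 1.79 ± 0.232 FPKM, a log2 fold change of -1.28 ± 0.16 (SE, edgeR adjusted p = 0.000507). Notch1, bound by CCN3, fell 2.09-fold, and Fgfr2, bound by CCN2, fell 1.40-fold. The heparan sulphate proteoglycan Sdc4, a coreceptor, rose from 45.6 ± 9.06 to 82.4 ± 1.76 FPKM. The endocytic receptor of CCN2, Lrp1, rose 1.52-fold from 98.3 ± 14.9 to 154 ± 3.25 FPKM. Itgb5 rose 1.47-fold, to 151 ± 3.29 FPKM. Igf2r did not pass, at 99.0 ± 5.27 and 107 ± 4.24 FPKM. The leukocyte integrin genes Itgam and Itgb2 stayed at or under 0.163 FPKM in every library, below the filter.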

How the data were processed

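Poly(A) RNA of 6 libraries was sequenced. Tools named in the submitters' processing notes are StringTie 2.1.6, HISAT2 2.2.1, cutadapt 1.9, edgeR and DESeq2, and the build is rat mRatBN7.2. Their annotation release, strand setting and way of counting were not given in the sources used here. The authors deposited 1 table with FPKM values scaled per kilobase and per M fragments, per the file headers, and count columns. The latter hold counts per the file headers and were taken, as deposited, to be estimated counts with no scaling between libraries: they are whole, but from 31.9% to 32.9% of those between 1 and 40 are multiples of 4, against 25% by chance. Rounding them changed nothing. Strand use being unknown, reads of overlapping antisense genes cannot be told apart.

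The 11559 genes that reached 1 FPKM in 3 or more libraries were tested with edgeR 4.0.16 (trimmed-mean factors, quasi-likelihood test, group as the only term, R 4.3.3), with Benjamini-Hochberg adjustment over all of them and a threshold of 0.05. Standard errors are the absolute log2 fold change over the root of F. Alternatives used DESeq2 1.42.0, limma 3.58.1 on log2(FPKM + 1) or log2(FPKM + 0.1), other filters and scalings, a replicate block and leaving out each library. The fit was tested on simulated data. Ratios were compared by exact permutation. Members and lists were chosen with earlier results of these data known. Of each list, up to 6 called genes of largest change (mean FPKM 1 or more in a group) and the 2 most abundant genes not called were named, with a few more in context after their values were seen. A result of 1 listed gene is not reported here.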

Additional observations from a re-analysis of the deposited data

How the results depend on the processing

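Ccn2 and Ccn3 kept their direction and their call in all 15 alternatives, with log2 fold changes from -1.17 to -1.02 and from 1.65 to 2.02. Of the 32 tested genes among the members and named genes, 22 kept direction and call in every alternative that gave them a value; Dchs1, Itga6 and Notch1 had none under the FPKM filter of 5. The only sign changes were those of Tead1, which was not called: 0.040 and 0.043 with limma on log2(FPKM + 1) and log2(FPKM + 0.1), and from -0.071 to 0.056 when single libraries were left out. With either limma setting 3 members fell in place of 5 and 7 Hippo regulators in place of 13. Over all tested genes, limma on log2(FPKM + 1) called 1685 lower in place of 2201 and 2903 higher in place of 2323. Its log2 fold changes lay above those of the main fit by a median of 0.047 over all tested genes. DESeq2 called 5 Hippo regulators higher in place of 3, and 2496 of all tested genes in place of 2323. With an FPKM filter of 5, fewer genes were tested and 3 CCN receptors fell in place of 5. On leaving out single libraries, with fewer samples in the fit, members higher ranged from 1 to 2 and members lower from 1 to 5. Hippo regulators lower ranged from 8 to 15 and higher from 2 to 3. Over all tested genes, 1752 to 2635 were higher and 1640 to 2419 lower. The 15, 2635 and 2419 came without untreated replicate 1, and exceeded the counts from all 6 libraries. Causes of these shifts were not tested. The replicate numbers shared by the groups were not taken as pairs in the main fit. Same-numbered libraries had correlations of their deviations from the group mean of 0.052, 0.092 and 0.082, each the highest for its number. Correlations between differently numbered libraries were all negative, from -0.081 to -0.0065. Whether the numbers mark pairs was not tested. With the replicate block 2 members rose and 5 fell, as without it, and over all genes 2160 were higher and 2024 lower, against 2323 and 2201. The edgeR adjusted p with the block was lower for Ccn5 (0.00125, against 0.0185) and Lats2 (0.0223, against 0.0411). It was higher for the other called members. Depth limits what can be said of Ankrd1 and Ccn6, which rest on few fragments.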
